A study of Mus musculus with 6 samples.

Results

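The genes described here are 58 genes of DNA replication and S phase, chosen by symbol from the 46983 genes measured in the mouse aortic valve. All 58 were found as protein-coding genes, and all 58 passed the filter on low values. They were divided by what is known of their regulation. The first class held 23 members of a published gene signature that is used to score S phase in single cells. The second class held 7 subunits taken as constitutive, that is, present in resting cells as well as in cycling cells (Orc2, Orc3, Orc4, Orc5, Rfc1, Rpa1 and Rpa3). The remaining 28 members were in neither class.

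DNA is copied in S phase. Before that, in G1, the origin recognition complex (ORC) marks the start sites, and Cdc6 and Cdt1 load the MCM2-7 helicase onto them, a step called licensing that geminin (Gmnn) blocks once S phase has begun. Cdc45 and the GINS complex then switch the helicase on, RPA coats the unwound strands, the primase and the polymerases copy them, and the clamp Pcna, opened by the loader RFC, holds the polymerases on the template. Transcription of many of these genes is driven by E2F factors when a resting cell enters the cycle, and growing tissues in general hold more cycling cells than resting ones.

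RNA of whole aortic valves came from wild type C57BL/6J mice of either 2 days after birth (postnatal day 2, PND2) or 4 months. Each age had 3 libraries, and each library was made from pooled valves of 5 to 6 mice. No treatment or genetic change was involved. After CO2, pups were decapitated and adults killed by cervical dislocation, so the way of killing differed along with age and cannot be told apart from it. Pooling hides the differences between single mice, so each error given here is the spread between pools. Valve leaflets are small and lie against heart muscle, and cardiomyocyte genes were abundant in all 6 libraries (Actc1, the cardiac actin, had a mean of 6289 RPKM at PND2 and 1793 RPKM at 4 months). Library totals were 38994657, 30518001 and 29260736 reads at PND2 and 37350916, 23810507 and 28943701 reads at 4 months. Levels are RPKM, that is, reads scaled for exon length and for the library total. This scaling does not correct for differences in RNA composition between libraries. A comparison of levels between genes is approximate, since overlapping genes may share reads. No member had fewer than 13 reads in a library.

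Most members were lower in the adult valve. Of the 58 members, 47 were lower at 4 months and none was higher, at an adjusted p under 0.05 in limma on log2(RPKM + 0.1), with adjustment over all 25903 genes tested. Among all genes tested, 21.1% were lower and 14.7% were higher. With a fold change over 2 as well, 34 members were lower, against 8.47% of all genes. No member was higher at an unadjusted p under 0.05 either, or in limma voom on the recovered reads, where 48 members were lower (21.6% of all genes). With an unequal-variance test per gene 28 members were lower, against 7.5% of all genes. In 52 members every PND2 library lay above every 4 month library, which was the case in 29.9% of all genes. The median log2 fold change (4 months over PND2) was -1.22 over the members, a 2.32-fold lower level, against -0.14 over all genes tested. Median scaling moved the median of all genes by 0.12 to -0.02 and the calls from 5463 lower and 3810 higher to 4129 lower and 4601 higher, and 45 members were then still lower (15.9% of all genes) and none higher. In whole tissue, a smaller share of replicating cells and less RNA of these genes per cell cannot be told apart.

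The fall was not shared evenly. Among all genes tested 21.1% were lower, 8.47% were lower more than 2-fold, and the median log2 fold change was -0.14. These shares apply to the counts of the main limma fit by class here and by role below. In the S phase signature 22 of 23 members were lower, 15 of them more than 2-fold, and the median log2 fold change was -1.39. Among the constitutive subunits 2 of 7 were lower (Orc3 and Rpa3), none of them more than 2-fold, with a median of -0.16. This median was close to that of all genes tested, and so few subunits cannot separate their count from the share over all genes. Without 4 month replicate 3 none of the 7 was lower in limma and the median was -0.04, without PND2 replicate 3 or 4 month replicate 2 the count was 1, and without PND2 replicate 1 the median was -0.28. The unequal-variance test per gene gave 14 of 23 signature members and 0 of 7 constitutive subunits, against 7.5% of all genes. Orc5 was lower as well in limma voom, with values floored at 10 reads, and with a filter of at least 1 RPKM. In these fits no member lost its call. In the remaining members the count in the main limma fit was 23 of 28 with a median of -1.27. At 4 months the median member of the S phase signature stood at 36.7% of its PND2 level, and the median constitutive subunit at 89.3%. Of the 23 signature members, 18 had a larger fall than any of the 7 constitutive subunits. The signature members that did not were Pola1, Mcm6, Pcna, Pold3 and Rpa2. Of these Pola1 was not called, at -0.01 ± 0.23 on the log2 scale (SE, limma adjusted p = 0.976). Orc3 and Rpa3 were the 2 constitutive subunits called in the main limma fit. No p-value was computed for the difference between the classes, because the classes were set with earlier results of these data known.

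**Figure D1:**
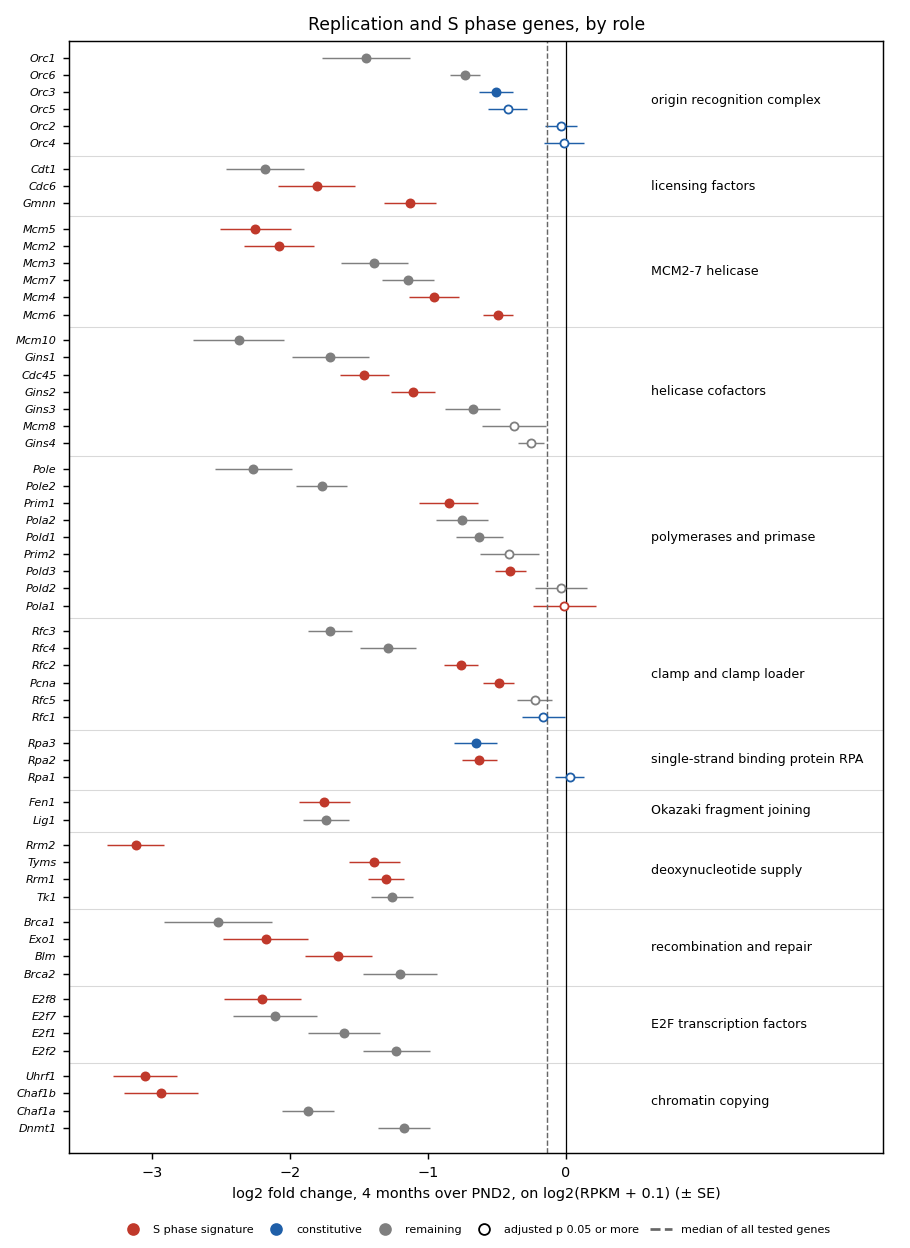
Log2 fold change at 4 months over PND2 for each of the 58 members (points, with bars for the SE from limma, on log2(RPKM + 0.1)), grouped by role and coloured by class. Filled points had an adjusted p under 0.05, and the dashed line is the median of all genes tested (-0.14). The points run from -3.12 for Rrm2 to 0.03 for Rpa1, and 57 of the 58 lie below 0.

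To show what the promoters of such genes look like, 4 promoters from RefSeq (GRCm38.p6, the build of the files) are printed as the 180 bases before the RefSeq start site, 5′ to 3′ on the strand of the gene. Rrm2 had the largest fall of all members on the log2(RPKM + 0.1) scale. Mcm5 and Mcm6 had the largest and the smallest fall within the MCM2-7 helicase, and Orc3 was a constitutive subunit that fell. The 4 promoters lie at chr12:24708074-24708253 (plus strand), chr8:75109329-75109508 (plus strand), chr1:128359706-128359885 (minus strand) and chr4:34614943-34615122 (minus strand). In the gene annotation of the files (mm10, the same assembly) the genes span chr12:24708241-24714146 (Rrm2, ENSMUSG00000020649), chr8:75109528-75128439 (Mcm5, ENSMUSG00000005410), chr1:128331590-128359664 (Mcm6, ENSMUSG00000026355) and chr4:34570796-34614944 (Orc3, ENSMUSG00000040044), so each stretch lies at the 5′ end of its gene, with a start site that differs slightly between the annotations. Capitals mark letters of the E2F motif, searched as TTTCCCGC, TTTCGCGC, TTTGCCGC and TTTGGCGC on both strands.
Rrm2: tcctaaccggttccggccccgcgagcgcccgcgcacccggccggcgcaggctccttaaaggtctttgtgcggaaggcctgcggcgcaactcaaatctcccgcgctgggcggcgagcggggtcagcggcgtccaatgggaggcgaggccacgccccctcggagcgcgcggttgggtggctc
Mcm5: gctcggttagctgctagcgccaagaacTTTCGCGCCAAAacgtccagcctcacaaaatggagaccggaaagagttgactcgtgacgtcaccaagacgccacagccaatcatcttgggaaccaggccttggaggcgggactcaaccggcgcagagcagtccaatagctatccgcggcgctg
Mcm6: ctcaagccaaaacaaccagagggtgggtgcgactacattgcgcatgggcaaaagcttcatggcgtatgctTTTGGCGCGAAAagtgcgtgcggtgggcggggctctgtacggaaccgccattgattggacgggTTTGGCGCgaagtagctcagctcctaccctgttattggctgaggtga
Orc3: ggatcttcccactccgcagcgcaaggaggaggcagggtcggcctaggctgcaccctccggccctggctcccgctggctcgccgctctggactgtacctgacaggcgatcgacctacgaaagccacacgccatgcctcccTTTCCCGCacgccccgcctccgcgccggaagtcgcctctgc
The stretch of Rrm2 held none of these letters although its RNA fell most on the log2(RPKM + 0.1) scale. Mcm5 held 2 matches that overlap, starting 153 and 149 bases before the start site, and Mcm6 held 3, of which the first pair overlaps. Orc3 held 1 match, which starts 41 bases before the start site. These are matches of letters only, and no binding was measured.

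The origin recognition complex, which sits on replication origins, split into subunits that fell and subunits that did not. Orc1, its cell cycle regulated largest subunit, was present at 0.663, 1.01 and 1.11 RPKM at PND2 and at 0.308, 0.217 and 0.288 RPKM at 4 months. It was by far the least abundant subunit at both ages, and its groups did not overlap (log2 fold change -1.45 ± 0.32, limma adjusted p = 0.0115). The 4 month libraries held only 40, 18 and 29 reads of Orc1. Its limma adjusted p rose to 0.0485 without PND2 replicate 3 and to 0.0452 from exons that overlap no other gene. Only 1 Orc1 exon had a mean of at least 10 reads, at a log2 ratio of -0.25 with overlapping ages. Orc6, the smallest subunit, had 29.7, 27.4 and 26.5 RPKM at PND2 and 18.7, 15.4 and 16.3 RPKM at 4 months (log2 fold change -0.73 ± 0.11, limma adjusted p = 0.00263). Orc6 was thus the most abundant subunit at both ages and kept 60.3% of its PND2 level.

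Orc2, a core subunit, had 13.5, 12.8 and 11.7 RPKM at PND2 and 12.6, 13.2 and 11.3 RPKM at 4 months (log2 fold change -0.03 ± 0.12). Orc4, another core subunit, had 13.6, 10.1 and 11.01 RPKM at PND2 and 10.6, 12.1 and 11.6 RPKM at 4 months (log2 fold change -0.01 ± 0.14). In both genes the ages overlapped, with limma adjusted p of 0.858 for Orc2 and 0.956 for Orc4. Orc5 had 8.01, 7.79 and 7.61 RPKM at PND2 and 6.12, 6.33 and 5.02 RPKM at 4 months. Its ages did not overlap, but the difference missed the threshold (log2 fold change -0.42 ± 0.14, limma adjusted p = 0.054). Orc5 passed it in limma voom, with values floored at 10 reads, and with a filter of at least 1 RPKM. Orc3 went from 19.8, 19.9 and 20.6 RPKM to 16.5, 13.3 and 12.9 RPKM (log2 fold change -0.51 ± 0.12, limma adjusted p = 0.0169). This fall was close in size to that of Orc5, and Orc3 lost its call without PND2 replicate 3 and without 4 month replicate 2 or 3, with an adjusted p of up to 0.0618. Across the 6 subunits the highest mean level was 30.1 times the lowest at PND2 and 62.0 times at 4 months.

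All 3 licensing genes fell. Cdc6, which recruits the helicase to ORC, had 1.26, 1.82 and 1.503 RPKM at PND2 and 0.343, 0.321 and 0.423 RPKM at 4 months (log2 fold change -1.81 ± 0.28, limma adjusted p = 0.00271). Cdt1, its partner in loading, had 5.01, 8.49 and 7.34 RPKM at PND2 and 1.88, 1.07 and 1.40 RPKM at 4 months (log2 fold change -2.18 ± 0.28, limma adjusted p = 0.00135). Gmnn, the inhibitor of Cdt1, had 12.5, 10.6 and 9.07 RPKM at PND2 and 4.81, 4.01 and 5.75 RPKM at 4 months (log2 fold change -1.13 ± 0.19, limma adjusted p = 0.00368). The loader therefore fell more than its inhibitor. Within a library, Cdt1 stood at 0.401, 0.801 and 0.809 of the Gmnn level at PND2 and at 0.392, 0.268 and 0.244 of it at 4 months, and the lowest PND2 ratio was close to the highest adult ratio.

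The 6 genes of the MCM2-7 helicase, which unwinds DNA ahead of the fork, were all lower at 4 months in limma, but by very different amounts. With an unequal-variance test per gene in place of limma, which shares the estimate of the spread across genes, Mcm7 alone passed the threshold, and Mcm2, Mcm3, Mcm4, Mcm5 and Mcm6 lost their calls at the same fold changes. Mcm5 had 10.03, 18.6 and 19.5 RPKM at PND2 and 3.11, 3.34 and 3.02 RPKM at 4 months (log2 fold change -2.25 ± 0.26, limma adjusted p = 0.000831). Mcm2 had 6.05, 10.6 and 11.2 RPKM at PND2 and 2.21, 1.97 and 1.95 RPKM at 4 months (log2 fold change -2.08 ± 0.25, limma adjusted p = 0.00109). These subunits kept 19.7% and 22.03% of their PND2 level. Mcm3 went from 11.2, 21.2 and 20.7 RPKM to 6.70, 6.28 and 6.34 RPKM (log2 fold change -1.39 ± 0.24, limma adjusted p = 0.00475). Mcm7 went from 8.63, 10.7 and 12.2 RPKM to 5.601, 4.37 and 4.11 RPKM (log2 fold change -1.14 ± 0.19, limma adjusted p = 0.00354). Both were between 2-fold and 3-fold lower. Mcm4 went from 15.9, 22.3 and 24.8 RPKM to 11.9, 10.2 and 9.81 RPKM (log2 fold change -0.96 ± 0.18, limma adjusted p = 0.00639). Mcm6 went from 26.4, 33.3 and 30.2 RPKM to 21.0, 21.2 and 21.4 RPKM (log2 fold change -0.49 ± 0.11, limma adjusted p = 0.0123). Mcm6 thus kept 70.8% of its PND2 level and remained the most abundant of the 6 RNAs, and the highest mean level was 3.23 times the lowest at PND2 and 10.4 times at 4 months, with Mcm2 lowest and Mcm6 highest at both ages.

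**Figure D2:**
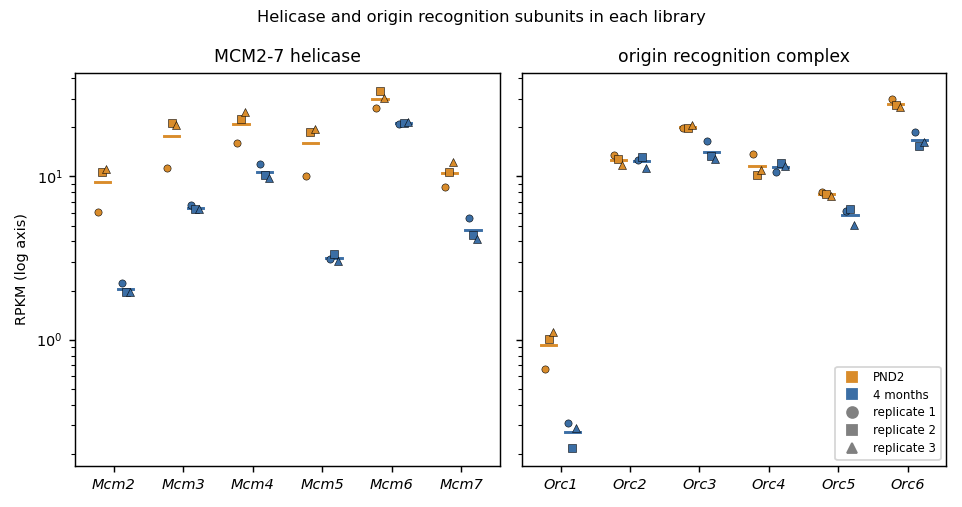
RPKM (log axis) of the MCM2-7 and ORC genes in each library, with PND2 in orange, 4 months in blue, a symbol for each replicate number and bars at the group means. All 6 MCM2-7 genes and Orc1, Orc3, Orc5 and Orc6 have every PND2 point above every 4 month point, whereas Orc2 and Orc4 overlap.

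The helicase was then set against the constitutive ORC subunits inside each library, which removes any difference in scaling between libraries. The median MCM2-7 level was 0.783, 1.74 and 1.77 times the median Orc2 to Orc5 level at PND2 and 0.531, 0.413 and 0.446 times at 4 months. On the log2 scale the ratio was 0.42 ± 0.67 at PND2 and -1.12 ± 0.18 at 4 months (SD, n = 3), a difference of -1.54. The ages did not overlap. PND2 replicate 1 stood apart with the lowest ratio of its age, and the difference was -1.93 without it. Taken against Rfc1, Rpa1 and Rpa3 in place of ORC the difference was -1.44. With the mean in place of the median it was -1.16, the smallest, and from exons that overlap no other gene it was -1.36. The ages did not overlap in any of these versions. An exact permutation test on such ratios was not run, since 3 pools per age allow no 2-sided p smaller than 0.1.

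Of the 7 helicase cofactors, 5 were lower. Mcm10, which acts when the helicase is switched on, had 0.863, 1.24 and 1.08 RPKM at PND2 and 0.167, 0.0710 and 0.139 RPKM at 4 months (log2 fold change -2.37 ± 0.33, limma adjusted p = 0.00186). It was among the least abundant members at both ages, 8.42-fold lower in the adult mean. Cdc45, the partner of MCM2-7 and GINS in the active helicase, went from 6.21 ± 0.998 to 2.18 ± 0.0950 RPKM (SD, n = 3), which is -1.46 ± 0.18 on the log2 scale (limma adjusted p = 0.0011). The 4 GINS subunits, which form a complex with one copy of each, did not move together. Gins1 fell by 1.71 on the log2 scale, Gins2 by 1.11 and Gins3 by 0.68. The order of the first pair turned over when only exons free of other genes were used (26.8% of the length of Gins2), with Gins2 at -2.15 and Gins1 at -1.71. Gins3 lost its call without any 1 of 5 libraries (each except PND2 replicate 3). Gins4 had 28.5, 27.4 and 28.4 RPKM at PND2 and 25.8, 22.7 and 22.3 RPKM at 4 months. Its ages did not overlap, but the difference was small and missed the threshold (log2 fold change -0.25 ± 0.10, limma adjusted p = 0.0786). Mcm8, a helicase of recombination repair, also missed it (log2 fold change -0.38 ± 0.23, limma adjusted p = 0.247). Among the GINS genes the highest mean level was 7.86 times the lowest at PND2 and 16.8 times at 4 months.

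Among the 9 polymerase and primase genes, 6 were lower, and the enzymes differed. The largest falls were in the 2 members from polymerase epsilon, the leading strand enzyme. Its catalytic subunit Pole had 2.18, 2.84 and 2.06 RPKM at PND2 and 0.417, 0.519 and 0.306 RPKM at 4 months (log2 fold change -2.26 ± 0.28, limma adjusted p = 0.00118). Its second subunit Pole2 went from 10.5 ± 1.54 to 3.01 ± 0.509 RPKM (SD, n = 3), which is -1.77 ± 0.19 on the log2 scale (limma adjusted p = 0.000597). The small subunits of the same enzyme, which are not members, did not pass the test, with Pole3 at -0.07 ± 0.10 (limma adjusted p = 0.615) and Pole4 at 0.08 ± 0.14 (limma adjusted p = 0.687). For polymerase alpha and primase, which start each strand, the accessory subunit Pola2 (log2 fold change -0.75 ± 0.19, limma adjusted p = 0.0198) and the primase subunit Prim1 (-0.85 ± 0.22, 0.0203) fell. The catalytic subunit Pola1 had 2.35, 2.69 and 3.01 RPKM at PND2 and 3.29, 2.73 and 2.07 RPKM at 4 months, so its ages overlapped completely. Prim2, the large primase subunit, was at -0.41 ± 0.21 (limma adjusted p = 0.177). In polymerase delta, the lagging strand enzyme, Pold1 (-0.63 ± 0.17, limma adjusted p = 0.0256) and Pold3 (-0.40 ± 0.11, limma adjusted p = 0.0304) fell, whereas Pold2 stood at 23.0 ± 5.31 and 22.1 ± 2.53 RPKM (-0.04 ± 0.19, limma adjusted p = 0.903). The calls of Pola2, Prim1, Pold1 and Pold3 each depended on single libraries: without PND2 replicate 2 all 4 missed the threshold, and each also missed it without at least 1 other library.

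The sliding clamp and its loader also changed unevenly, with 4 of 6 genes lower. Pcna, the clamp, had 26.3, 33.4 and 30.6 RPKM at PND2 and 21.3, 21.3 and 21.4 RPKM at 4 months (log2 fold change -0.49 ± 0.11, limma adjusted p = 0.0134, or 0.0508 without PND2 replicate 3). Its fall was smaller than that of most signature members, and 70.9% of its PND2 level remained. The near-identical copy Pcna-ps2, listed as a gene of its own, carried 82.2 ± 3.35 RPKM at PND2 and 52.7 ± 2.29 RPKM at 4 months (SD, n = 3), so reads of the clamp may be divided between these genes and its level is uncertain. Rfc3, a small loader subunit, had 8.64, 10.97 and 10.5 RPKM at PND2 and 3.26, 2.97 and 2.74 RPKM at 4 months (log2 fold change -1.71 ± 0.16, limma adjusted p = 0.000362). Rfc1, the large subunit, had 17.2, 22.9 and 20.8 RPKM at PND2 and 19.5, 19.7 and 15.1 RPKM at 4 months, with overlapping ages (log2 fold change -0.16 ± 0.15, limma adjusted p = 0.452). Rfc4 (-1.29 ± 0.20, limma adjusted p = 0.00293) and Rfc2 (-0.76 ± 0.12, limma adjusted p = 0.0033) fell as well, and Rfc5 was at -0.23 ± 0.13 (limma adjusted p = 0.217). From exons that overlap no other gene Rfc5 was at -1.08 (limma adjusted p = 0.0049), so that 5 of the 6 genes were then lower. The highest mean level among the RFC genes was 2.13 times the lowest at PND2 and 6.07 times at 4 months, or 6.76 and 9.62 times from exons that overlap no other gene, where Rfc5 was lowest at both ages.

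RPA, the single-strand binding protein, is needed for repair as well as for replication. Rpa1, its large subunit, had 19.9, 21.7 and 20.2 RPKM at PND2 and 22.6, 21.7 and 18.9 RPKM at 4 months and was the 1 member with a positive value (log2 fold change 0.03 ± 0.11, limma adjusted p = 0.864). Rpa3, the small subunit, had 15.0, 14.1 and 13.0 RPKM at PND2 and 10.9, 8.17 and 7.85 RPKM at 4 months (log2 fold change -0.65 ± 0.15, limma adjusted p = 0.0156). It had been placed in the constitutive class, but its fall was as large as that of the signature member Rpa2 (-0.63 ± 0.13, limma adjusted p = 0.00853). The call of Rpa3 was lost without 4 month replicate 3 (adjusted p = 0.0561).

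The enzymes that join Okazaki fragments fell together. Lig1, the replicative DNA ligase, had 13.4, 18.5 and 14.7 RPKM at PND2 and 4.97, 3.98 and 4.69 RPKM at 4 months (log2 fold change -1.74 ± 0.17, limma adjusted p = 0.000393). Fen1, the flap nuclease, had 8.36, 9.06 and 9.26 RPKM at PND2 and 3.04, 2.03 and 2.75 RPKM at 4 months (log2 fold change -1.75 ± 0.19, limma adjusted p = 0.000629). Each kept 29.3% of its PND2 level.

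Deoxynucleotide supply held the largest fall of all members on the log2(RPKM + 0.1) scale. In the ratio of mean RPKM, Chaf1b (9.64-fold) and Uhrf1 (9.32-fold) fell slightly more than Rrm2. Rrm2, the small subunit of ribonucleotide reductase whose level is tied to S phase, had 13.9, 16.7 and 11.4 RPKM at PND2 and 1.64, 1.68 and 1.23 RPKM at 4 months. It was 9.22-fold lower in the adult mean (log2 fold change -3.12 ± 0.21, limma adjusted p = 9.49e-05). Rrm1, the large subunit of the same enzyme, had 31.0, 38.3 and 32.1 RPKM at PND2 and 14.2, 14.8 and 11.8 RPKM at 4 months (log2 fold change -1.30 ± 0.13, limma adjusted p = 0.000496). Within a library, Rrm2 stood at 0.449, 0.437 and 0.356 of the Rrm1 level at PND2 and at 0.115, 0.113 and 0.104 of it at 4 months, a log2 difference of -1.89 between the ages, with no overlap. Tyms, thymidylate synthase, had 4.77, 5.26 and 4.06 RPKM at PND2 and 1.67, 1.68 and 1.82 RPKM at 4 months (log2 fold change -1.39 ± 0.18, limma adjusted p = 0.00157). Tk1, the cytosolic thymidine kinase, had 6.66, 8.03 and 6.67 RPKM at PND2 and 2.89, 2.97 and 2.85 RPKM at 4 months (log2 fold change -1.26 ± 0.15, limma adjusted p = 0.00109). Their adult libraries were nearly equal.

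All 4 E2F genes fell, both activators and repressors. E2f1, an activator, had 5.602, 10.3 and 10.5 RPKM at PND2 and 2.97, 2.64 and 2.53 RPKM at 4 months (log2 fold change -1.61 ± 0.26, limma adjusted p = 0.00337). E2f2, another activator, had 1.66, 1.49 and 1.39 RPKM at PND2 and 0.598, 0.525 and 0.644 RPKM at 4 months (log2 fold change -1.23 ± 0.24, limma adjusted p = 0.00764). The atypical repressors, which are themselves E2F targets, fell more. E2f7 had 1.33, 1.48 and 0.967 RPKM at PND2 and 0.181, 0.196 and 0.261 RPKM at 4 months (log2 fold change -2.11 ± 0.30, limma adjusted p = 0.0021). E2f8 had 1.498, 1.98 and 1.42 RPKM at PND2 and 0.231, 0.309 and 0.286 RPKM at 4 months (log2 fold change -2.20 ± 0.28, limma adjusted p = 0.00127).

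The genes that copy chromatin marks behind the fork were all more than 2-fold lower. Uhrf1, which brings the maintenance methyltransferase to newly copied DNA, had 6.61, 9.86 and 6.57 RPKM at PND2 and 0.880, 0.878 and 0.714 RPKM at 4 months (log2 fold change -3.05 ± 0.23, limma adjusted p = 0.000171). Dnmt1, that methyltransferase, had 21.3, 35.1 and 27.2 RPKM at PND2 and 13.4, 12.1 and 10.9 RPKM at 4 months (log2 fold change -1.17 ± 0.19, limma adjusted p = 0.00323). The recruiter thus kept 10.7% and the enzyme 43.4% of the PND2 level. Chaf1a and Chaf1b, subunits of the assembly factor that places histones on new DNA, fell by 1.87 and 2.93 on the log2 scale (limma adjusted p = 0.000468 and 0.000337).

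Repair genes of S phase were low at both ages and fell further. Brca1, which acts in recombination repair, had 1.62, 2.08 and 1.14 RPKM at PND2 and 0.333, 0.103 and 0.178 RPKM at 4 months (log2 fold change -2.52 ± 0.39, limma adjusted p = 0.00281). Brca2, its partner in loading the recombinase, had 1.63, 1.77 and 1.59 RPKM at PND2 and 0.703, 0.837 and 0.496 RPKM at 4 months (log2 fold change -1.20 ± 0.27, limma adjusted p = 0.0124). Exo1, an end resection nuclease, fell by 2.18 and Blm, a helicase of recombination, by 1.65 on the log2 scale (limma adjusted p = 0.00194 and 0.00234). At these low levels the added 0.1 RPKM shrinks the fold change. Exo1 for example was 8.31-fold lower in the ratio of mean RPKM.

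Although most members fell, their order as a set changed little. Spearman's rho between the mean RPKM at PND2 and at 4 months was 0.918 over the 58 members, which are not independent of each other. Single members moved further. By level, Rrm2 went from rank 17 at PND2 to rank 42 at 4 months, Mcm5 from 14 to 29, Lig1 from 15 to 26 and Orc4 from 23 to 12. Mean levels ran from 0.765 to 33.8 RPKM at PND2 and from 0.0921 to 23.6 RPKM at 4 months. The number of members with a mean under 1 RPKM rose from 2 to 13. The median level of the S phase signature went from 9.28 to 2.69 RPKM and that of the constitutive subunits from 14.1 to 12.4 RPKM, so the adult valve retained a set of replication RNAs in which Pcna, Mcm6, Gins4, Pold2, Rpa1 and Rfc1 were each above 18 RPKM.

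**Figure D3:**
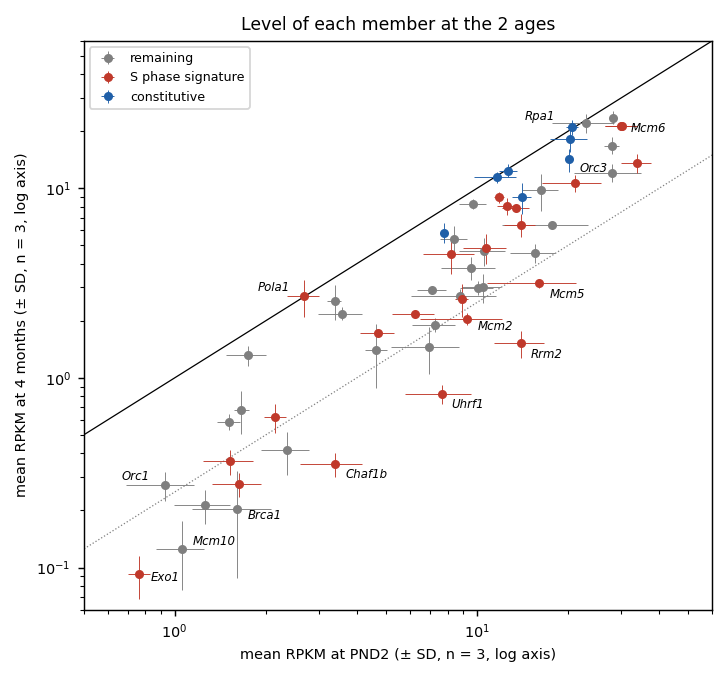
Mean RPKM of each member at PND2 (x axis) and at 4 months (y axis), both on log axes with bars for the SD of 3 libraries, coloured by class. The solid line marks equal levels and the dotted line a 4-fold lower level at 4 months. Rpa1 and Pola1 lie close to the solid line, and Rrm2, Uhrf1, Chaf1b, Exo1, Mcm10 and Brca1 lie well below the dotted line.

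The PND2 libraries differed among themselves, and the MCM2-7 genes differed in another order than genes of mitosis, while the members as a whole were mixed. A list of 26 genes of mitosis was read for comparison (median log2 fold change -2.67, 25 lower, against 21.1% of all genes tested). All 6 MCM2-7 genes were lowest in PND2 replicate 1, by a median of 0.70 on the log2 scale against the mean of the other PND2 libraries, and Cdt1, E2f1 and Orc1 were lowest there as well. Over all 58 members, 33 were highest in PND2 replicate 2, 32 were lowest in replicate 1 and 23 were lowest in replicate 3, among them Rrm2, Tyms, Uhrf1, Chaf1b, E2f7, E2f8 and Brca1. Of the 23 signature members, 13 were lowest in replicate 1 and 10 in replicate 3. In the mitosis list, 22 of the 26 genes were highest in PND2 replicate 1 and all 26 were lowest in replicate 3. For example Cdk1, the mitotic kinase, had 19.7, 15.6 and 10.6 RPKM in PND2 replicates 1 to 3, whereas Mcm5 had 10.03, 18.6 and 19.5 RPKM. Each library is a different pool of pups, the deviations within an age have only 3 values, and this difference between the lists was not tested. Other measures moved with these libraries as well, and their part was not tested. Mitochondrial genes took 8.998% of the reads counted on genes in PND2 replicate 1, against 5.44% and 6.39% in replicates 2 and 3. Of 6 smooth muscle markers 5 were lowest in replicate 1, and of 6 erythroid markers 5 were highest in replicate 1 and 5 lowest in replicate 3, the order of the mitosis genes. Of 10 cardiomyocyte markers 7 were lowest in replicate 1 and 8 highest in replicate 3, and of 8 endothelial markers 7 were lowest in replicate 2. All 5 Schwann cell markers and 5 of 6 neutrophil markers were highest in replicate 3. All 3 tested B cell markers were highest in replicate 1, and 6 of 8 macrophage markers were lowest in replicate 2. Without PND2 replicate 1, 45 members were lower at 4 months and none was higher, with 20.3% of all genes lower.

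**Figure D4:**
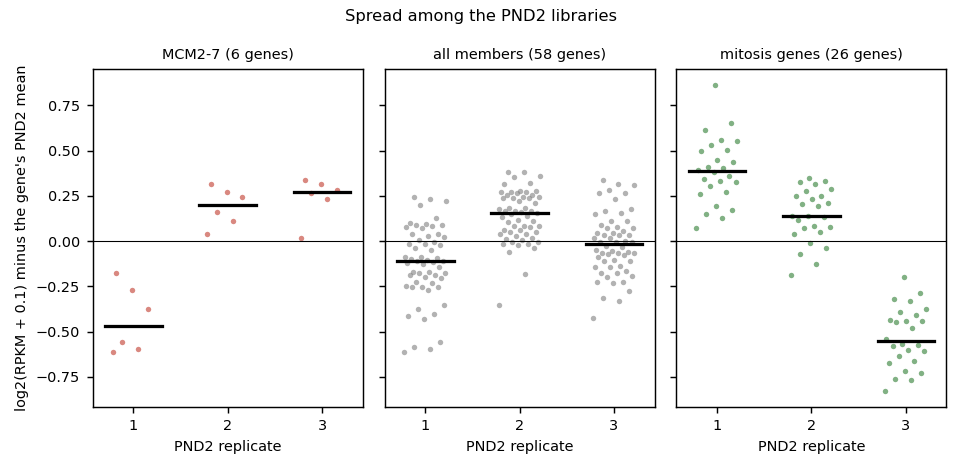
Deviation of each gene from its own PND2 mean on the log2(RPKM + 0.1) scale in the 3 PND2 libraries, for MCM2-7, all members and the mitosis genes (points are genes, bars are medians). The MCM2-7 points are lowest in replicate 1, and the mitosis points are lowest in replicate 3, where their median is -0.55.

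The E2F letters given above were searched in RefSeq promoters (250 bases before to 50 bases after the start site). A promoter was listed for 49 of the 58 members, and those not matched were Pole, Prim2, Gins2, Mcm4, Exo1, Rfc2, Gmnn, Gins1 and Gins4. The letters were present in 21 of the 49 members (42.9%, 95% Wilson interval 30.0% to 56.7%), against 704 of all 27025 genes with a promoter (2.61%). Among the constitutive subunits 1 of 7 held them (Orc3), and in the S phase signature 6 of 18. In the remaining members the count was 14 of 24. In the 21 members with the letters the log2 fold change had its median at -1.23, and in the 28 without them at -1.27, so the medians were close. The mitosis genes showed another pattern: 1 of 22 held the E2F letters, but 16 of 22 (72.7%) held TTTGAA, letters of the cell cycle homology region, on either strand, against 20.2% of all genes and 16.3% of the members. CCAAT was found on either strand in 65.3% of the members, 77.3% of the mitosis genes and 41.1% of all genes. Each motif was counted on its own, and matches of different motifs may overlap.

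**Figure D5:**
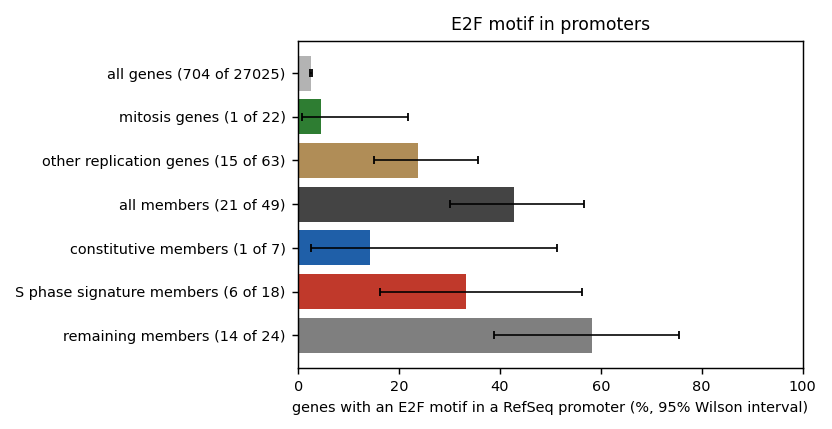
Share of genes with the E2F motif in a RefSeq promoter on either strand, in percent from 0, with 95% Wilson intervals and counts beside each list. The members reach 42.9% and all genes 2.61%.

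The rest of the replication machinery was read from 7 further lists of 81 genes. In all, 54 were lower, 6 were higher and 21 did not pass the test, and the median log2 fold change was -0.75. Among all genes tested 21.1% were lower and 14.7% were higher, and these shares apply to each list below. Origin firing and its kinases had the largest median fall of these lists, with 9 of 11 genes lower, a median of -1.73 and Ccne1 at the head (cyclin E1, the G1/S cyclin, from 2.77 ± 0.0535 to 0.391 ± 0.0786 RPKM, log2 fold change -2.56 ± 0.24, limma adjusted p = 0.000398). From exons that overlap no other gene Ccna2, the S phase cyclin A2, had the larger fall, at -3.22 (limma adjusted p = 0.000699) in place of -1.93, and Ccne1 stayed at -2.56. Mtbp, a firing factor, changed least in that list and missed the threshold (-0.77 ± 0.28, limma adjusted p = 0.071). Other genes of the S phase signature were lower in 16 of 20 cases, led by Clspn, the checkpoint adaptor claspin (-3.13 ± 0.34, limma adjusted p = 0.000635), with Wdr76 at the other end of the falls (-0.40 ± 0.19, limma adjusted p = 0.146). One of them, Brip1, a helicase that works with Brca1, was higher at 4 months, with 1.76, 2.303 and 2.36 RPKM at PND2 and 4.37, 4.65 and 4.00 RPKM at 4 months (0.99 ± 0.19, limma adjusted p = 0.00699). Fork and checkpoint genes were lower in 7 of 11 cases, from Chek1, the S phase checkpoint kinase (-2.52 ± 0.23, limma adjusted p = 0.000321), to Atrip, a partner of Atr, at 0.07 ± 0.18 (limma adjusted p = 0.798). One of the 7, Rad9a, a checkpoint clamp subunit, lost its call from exons that overlap no other gene (limma adjusted p = 0.238 in place of 0.0493).

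Nucleotide supply outside the members moved in both directions, with 6 of 9 genes lower and 3 higher. Dctpp1, which removes faulty cytidine nucleotides, fell most (-1.15 ± 0.18, limma adjusted p = 0.00289), and Dtymk, which makes the thymidine diphosphate, least (-0.48 ± 0.14, limma adjusted p = 0.0317), with its call lost without PND2 replicate 2 or 3 or 4 month replicate 1 or 2 (adjusted p of up to 0.1). Rrm2b, the reductase subunit that serves resting cells, had 5.57, 5.00 and 4.80 RPKM at PND2 and 10.4, 11.2 and 8.60 RPKM at 4 months (0.95 ± 0.15, limma adjusted p = 0.00301). At PND2 the level of Rrm2b was below that of Rrm2, and at 4 months it was above it in every library. Tk2, the mitochondrial thymidine kinase (0.80 ± 0.18, limma adjusted p = 0.0131), and Samhd1, which breaks deoxynucleotides down (0.65 ± 0.11, limma adjusted p = 0.00369), were higher as well. All 3 are known for roles outside S phase. In the polymerase and lagging strand list 7 of 12 genes were lower, led by Top2a, a topoisomerase that is also counted among the mitosis genes (-3.38 ± 0.29, limma adjusted p = 0.000274), Chtf8, a subunit of another clamp loader, was at -0.0032 ± 0.12 (limma adjusted p = 0.986), and Pold4, a small subunit of polymerase delta, was higher (0.57 ± 0.15, limma adjusted p = 0.0221), a call that was lost without PND2 replicate 1 or 2 or 4 month replicate 1 or 3 (adjusted p of up to 0.0678). Rnaseh2a, a subunit of the nuclease that removes RNA from DNA and 1 of the 7, lost its call from exons that overlap no other gene (limma adjusted p = 0.113 in place of 0.00709). Histone chaperones were lower in 4 of 6 cases, led by Asf1b (-1.89 ± 0.31, limma adjusted p = 0.00364), with the least difference in Rbbp4 (-0.15 ± 0.08, limma adjusted p = 0.205). From exons that overlap no other gene Rbbp4 was at -0.63 (limma adjusted p = 0.00245), so it then counted as lower and was no longer the least changed gene of its list. Of the pocket proteins, other E2F genes and partners, 5 of 12 were lower and 1 was higher. Rb1, the retinoblastoma protein, was at 0.38 ± 0.16 (limma adjusted p = 0.108) and counted as higher from exons that overlap no other gene (0.56, limma adjusted p = 0.0313). Mybl2, an E2F target and activator of mitotic genes, fell most (-2.03 ± 0.35, limma adjusted p = 0.00414), and E2f6, a repressor, was at -0.04 ± 0.13 (limma adjusted p = 0.846). Rbl2, the pocket protein p130 of resting cells, was higher, with 15.9, 13.4 and 11.8 RPKM at PND2 and 25.5, 24.9 and 20.01 RPKM at 4 months (0.77 ± 0.15, limma adjusted p = 0.00733).

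Values per exon showed the same contrast between the classes, but they come from the same reads and are not independent of the values per gene. All exon entries of a gene were counted, also where they overlap each other. Of 1311 exons of the members with a mean of at least 10 reads, 66.4% had every PND2 library above every 4 month library, against 27.9% of all 278579 such exons, and 6 had the reverse. The share was 74.6% in the S phase signature (352 of 472 exons) and 30.5% in the constitutive subunits (78 of 256). The constitutive genes differed: Orc3 had 40 of 58 such exons, Orc5 21 of 34 and Rpa3 5 of 6. Rfc1 had 8 of 43, Orc4 3 of 48, Orc2 1 of 27 and Rpa1 0 of 40. Because a read could be counted at more than 1 gene and the use of strand was not stated, levels were also rebuilt from exons that overlap no other gene. The fold change of 4 members moved by more than 0.2 on the log2 scale. They include Gins2, whose exons overlap Gse1 and Gm20388 on the other strand, and Rfc5, which overlaps Wsb2 on the other strand, with the values given above. Fen1 was at -1.24 in place of -1.75, but only 8.09% of its length was free of Tmem258 and Gm10143. Orc1 was at -1.24 in place of -1.45 (Gm12743).

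Markers of cell types in the tissue also moved between the ages, and their part in the falls above was not tested. The shares over all genes tested were 21.1% lower and 14.7% higher. All 8 endothelial markers were lower at 4 months. Their summed level was 553, 425 and 576 RPKM at PND2 and 247, 257 and 240 RPKM at 4 months, with Pecam1 the most abundant (mean 97.2 RPKM) and none at 0. Of the 10 cardiomyocyte markers, 5 were lower. Their summed level was 17738, 18929 and 20484 RPKM at PND2 and 6983, 10660 and 6946 RPKM at 4 months, with Actc1 the most abundant and none at 0. The 9 neutrophil markers summed to 28.3, 25.8 and 32.4 RPKM at PND2 and 1.05, 1.604 and 0.608 RPKM at 4 months, with 5 of 6 tested lower, S100a9 the most abundant, and Ly6g, which defines the mature cell, at 0 in every PND2 library. Among 8 markers of valve interstitial cells 4 were lower and 2 higher (Dcn, the most abundant, and Lum), and their summed level was 6501, 7152 and 6928 RPKM at PND2 and 9226, 8033 and 10135 RPKM at 4 months. Smooth muscle markers were higher in 5 of 6 cases, macrophage markers in 6 of 8 with 1 lower, adipocyte markers in 6 of 7, Schwann cell markers in 2 of 5, and T cell markers in 3 of 7 with 2 lower. Of 6 erythroid markers tested none passed the threshold in limma (1 at an unadjusted p under 0.05), and their summed level was 2599, 2517 and 1865 RPKM at PND2 and 749.7, 2158 and 1408 RPKM at 4 months. Of 3 B cell markers tested none passed (0 at an unadjusted p under 0.05). Of 2 thymocyte markers tested Cd1d1, which other cells also express, was lower, while Rag1 and Rag2 stayed under 0.2 RPKM in the mean of each age.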

How the data were processed

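The authors isolated aortic valves with little adjoining tissue, filtered and trimmed paired reads from a stranded kit, aligned them to mm10 with TopHat 2.1.0 and counted them on Ensembl release 83 genes and exons with easyRNASeq in R 3.2.2. The deposited tables give RPKM for genes and for exons, and whether counting used strand is not given in the sources used here. RPKM times exonic length and library total gave whole reads (within 0.01) for 100% of gene values. Reads on genes came to 2.31 to 2.36 times the totals. Some reads may have been counted at several genes, but the cause was not tested. Libraries were taken as independent pools.

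Ages were compared with limma 3.58.1 (R 4.3.3), 2-sided, on log2(RPKM + 0.1) values with an eBayes trend, for the 25903 genes with at least 0.1 RPKM in 3 libraries, with Benjamini-Hochberg adjustment over all of them. On simulated data of 25602 genes, drawn for the comparison of 4 months with PND2, the fit found 84.5% of 200 changed genes with 25 false calls. These false calls were a larger share of the calls than the threshold of 0.05 sets. The changed genes had a minimum count and changes of at least 2-fold, and the dispersion was the same for all genes. The recovery therefore does not apply to smaller falls or to genes that vary more between pools. The members, lists, classes, markers and alternatives were chosen with earlier results of these data known. All members may be named. Values in every library are given for fixed members and for the largest and smallest change in each role, and in each further list the largest and smallest change are named. Brip1, Pold4, Pole3, Pole4, Ccna2, Rb1, Rad9a, Rnaseh2a, Rrm2b, Rbl2, Tk2, Samhd1 and Pcna-ps2 were chosen after their values were seen. Alternatives were pseudocounts of 1 and 0.01, no filter, at least 1 RPKM, no trend, an unequal-variance test per gene, median scaling, quantile normalization, voom on recovered reads, values floored at 10 reads, a replicate block, exons shared with no other gene, and each library left out. Tables and figures used Python 3.11.15, pandas 2.3.3, scipy 1.17.1 and matplotlib 3.10.9. Intervals cover counting error only.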

Additional observations from a re-analysis of the deposited data

How the results depend on the processing

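Over 18 alternatives (17 for the 4 members Orc1, Mcm10, Exo1 and E2f7, which did not pass the filter at 1 RPKM), 984 of 1040 values kept their side of the threshold, 51 lost their call, 5 gained it and none reversed a call, and 33 of the 54 members run under all 18 kept theirs in each. The count of 47 members lower at 4 months ran from 41 to 45 when 1 library was left out (13.5% to 20.3% of all genes), and 39 of the 47 kept their call each time (those that did not were Gins3, Pold3, Prim1, Pold1, Pola2, Orc3, Rpa3 and Pcna). With 1 library left out, the constitutive count of 2 ran from 0 (without 4 month replicate 3) to 2. The median log2 fold change of these subunits then ran from -0.28 (without PND2 replicate 1) to -0.0398 (without 4 month replicate 3). Orc5 was lower as well in voom, with values floored at 10 reads, and with the filter at 1 RPKM. With the unequal-variance test per gene, 28 members, 14 signature members and 0 constitutive subunits were lower, against 7.5% of all genes (21.1% in limma), and of the other replication genes 26 were lower and 2 higher. The 19 members that lost their call were Orc1, Orc3, Mcm2 to Mcm6, Gins1, Gins3, Pola2, Prim1, Pold1, Pold3, Pcna, Rfc2, Rpa3, Brca2, E2f1 and Dnmt1, and the cause was not tested. With a pseudocount of 1 the median log2 fold change of the S phase signature members was -1.0015, and with median scaling the median log2 fold change of the constitutive members was -0.042. Counted on the given strand only, the E2F letters were present in 22.5% of the members and 1.38% of all genes. Of the 81 other replication genes, 38 to 52 were lower and 5 to 6 higher in the same fits, against, for the lower, the same 13.5% to 20.3% of all genes.

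The replicate numbers did not pair the libraries: deviations of same-numbered libraries correlated at 0.04, -0.06 and -0.16 across genes, and no library correlated best with its own number. In the fit with a replicate block 43 members were lower (16.1% of all genes) and none higher, with Gins3, Pola2, Pold1 and Pold3 not called. Depth limits the low members, since the lowest count in a library was 13 reads. Reads that may be shared between overlapping genes or with a near-identical copy limit Gins2, Rfc5, Fen1, Orc1 and Pcna. Each age has 3 pools, whose spread may be partly technical.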
